A study of Mus musculus with 4 samples.

Results

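Eomes, Tbx21, Cd44, Ifng, Ccl5, Xcl1, Il18r1 and Il18rap are genes associated with innate-like and memory-like CD8+ T cells, and they are described here in CD8+ T cells made in culture, set against CD8+ T cells taken from the thymus. The 8 genes were chosen by name, with earlier results of these data known, out of 28786 gene names on the array. Of the 41174 non-control probes, 13 carry them. The in vitro-derived cells came from Lin-Sca1+CD117+ bone marrow progenitors of B6 mice aged 6 to 8 weeks, which spent 35 days in coculture with OP9-DL1 stroma (marrow-derived feeder cells carrying Delta-like 1, a ligand of Notch) and Flt3 at 5 ng/ml and IL7 at 1 ng/ml. The thymic cells came from C57Bl/6 mice aged 4 to 5 weeks. Both kinds were sorted as CD8+ cells with high TCRbeta, and neither received any other treatment. Each kind was represented by 2 preparations of total RNA, and 4 Agilent arrays with 2 colours each paired 1 in vitro-derived preparation (Cy5) with 1 thymic preparation (Cy3), so that every combination was hybridised once. Donor age, tissue of origin, culture and dye all differed in the same way between the kinds and cannot be told apart. The preparations are labelled as biological replicates without naming animals. The p-values here reflect only how these preparations scatter, with each gene's spread moderated towards that of all genes.

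Most CD8+ T cells leave the thymus as naive cells and acquire effector functions only after meeting antigen. Innate-like or memory-like CD8+ T cells instead carry the T-box factors Eomes and T-bet and high CD44 without such an encounter, respond to interleukin 12 and interleukin 18, and release interferon gamma and chemokines rapidly. In mice such cells occur in the thymus itself, where interleukin 4 from other lymphocytes is a known inducer.

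All 7 members that could be tested were lower in in vitro-derived cells than in thymic cells, and 6 of them by at least 2-fold. Their log2 differences (in vitro-derived minus thymic) ran between -3.06 and -0.75 with a median of -2.19, against a median of 0.03 over all 19160 genes tested. Among all genes, 25.4% were called lower and 26.7% were called higher in in vitro-derived cells, and 5% were called at least 2-fold lower, so a call alone was common in these data. A call means an adjusted p under 0.05 in limma's moderated test on 2 against 2 preparations, with Benjamini-Hochberg adjustment over all genes. At the level of probes, 10 of 11 tested member probes were called lower and none higher, against 25.6% lower and 26.6% higher among 27234 probes. Il18rap could not be tested, because neither of its probes was well above background on all 4 arrays in either channel. In these bulk RNA samples, fewer cells carrying a transcript and less transcript per cell cannot be told apart.

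**Figure D1:**
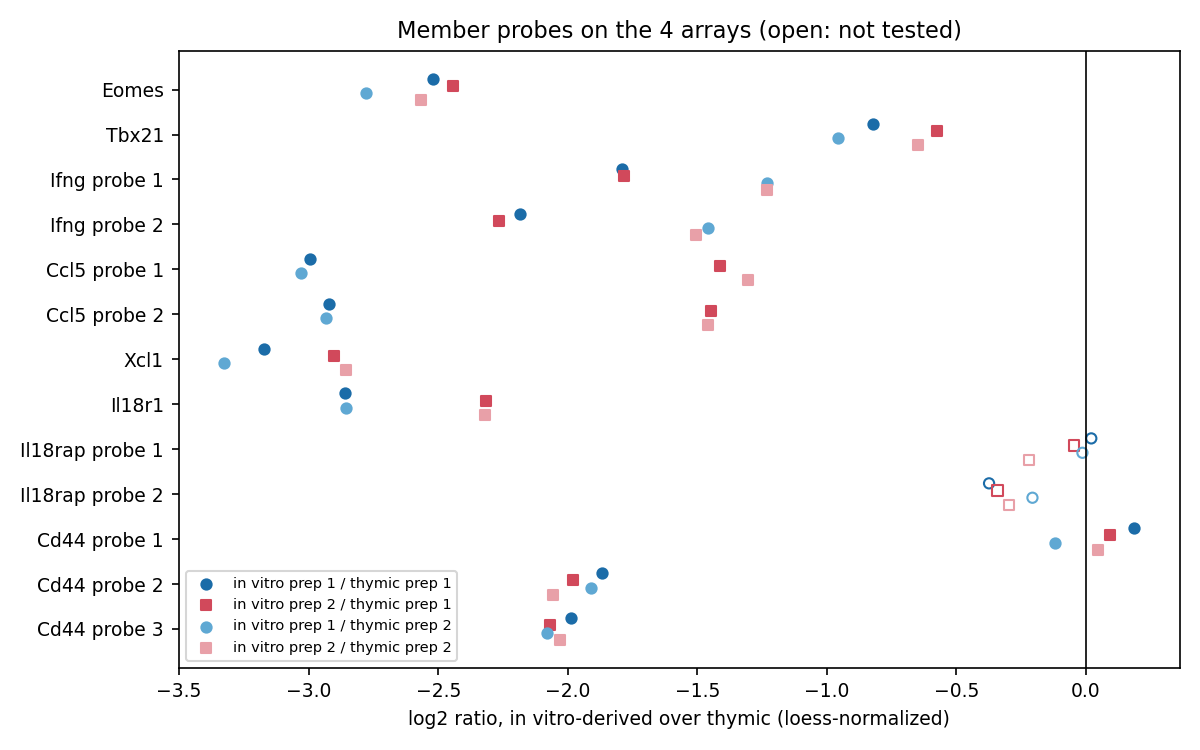
Log2 ratio of in vitro-derived over thymic signal (horizontal axis) for each of the 13 member probes on each of the 4 arrays, with symbol and colour marking the pair of preparations. All tested probes lie left of 0 on every array except Cd44 probe 1, and Ccl5 splits by in vitro-derived preparation while Ifng splits by thymic preparation; open symbols are the Il18rap probes, which were not tested. Cd44 probe 1 is A_51_P407053, and probe 2 of Cd44, Ifng and Ccl5 stands for the gene.

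Between 63.7% and 70.9% of the 43379 non-control spots were well above background in either channel of an array. The number of preparations, 2 of each kind, limits the precision. The defining CD8+ T cell transcripts were bright in both kinds: Cd8a had log2 levels of 15.46 and 15.19 in in vitro-derived preparations, against 16.07 and 16.09 in thymic preparations. Of 5 tested T cell markers (Cd8a, Cd8b1, Cd3d, Cd3e, Cd3g), 4 were called lower in in vitro-derived cells and the median difference of the list was -0.70. Among all genes, 25.4% were called lower and 26.7% higher. Median centring in place of intensity-dependent normalization turned the sign of all 4, with Cd8a, Cd3e and Cd3g then called higher and Cd8b1 not called (0.38, limma, adjusted p = 0.0762). In that setting 60.2% of all genes were called higher. Markers listed for double-positive thymocytes, the stage before CD8+ cells, were called higher in culture-derived cells for 5 of 6 tested (Rag1, Dntt, Ptcra, Cd24a, Arpp21). The list's median was 3.81. The log2 of its summed levels was 17.94 and 17.73 in in vitro-derived preparations, against 12.61 and 12.58 in thymic preparations. Dntt, the brightest of the list, alone had 17.54 and 17.32 in in vitro-derived preparations. Cd4 itself was not called (0.15, limma, adjusted p = 0.116). Its levels were 7.69 and 7.58 in in vitro-derived preparations, against 7.51 and 7.47 in thymic preparations. Under median centring Cd4 was called higher (0.40). Stroma markers were called higher for 7 of 8 tested (Col1a1, Col1a2, Col3a1, Pdgfrb, Sparc, Cxcl12, Postn), with a median of 2.92. Vcam1 was not called (-0.08). It was called lower with Agilent's processed signals (-0.32, limma, adjusted p = 0.0208) and under median centring (-0.32, adjusted p = 0.00899). Dcn and Lum were not tested, being well above background on at most 1 array of a channel. Both tested gamma delta T cell markers were also higher, Tcrg-C by 4.77 and Sox13 by 1.15 on the log2 scale, while Il23r exceeded background on no array. The part of these other transcripts in the member differences was not tested.

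Sequence upstream of the start site was examined for 7 of the 8 members, those found in RefSeq's promoter table for GRCm38.p6. In that build Il18r1, Il18rap and Xcl1 lie on chromosome 1, Cd44 on chromosome 2, Eomes on chromosome 9, Ifng on chromosome 10 and Tbx21 on chromosome 11. The search used the letters of a T-box half-site, TCACACC, and its reverse complement GGTGTGA, because Eomes and Tbx21 encode factors that bind such sites. The window ran over 250 bases before to 50 bases after each annotated start and took in both strands. The letters occurred in 1 of the 9 member promoters, that of Xcl1, at position -188 from the start, against 3.98% of all 32851 promoters in the table. Xcl1 had the largest difference of the members, and its 250 upstream bases lie at chr1:164935523-164935772 on the minus strand. Those of Ifng, at chr10:118440796-118441045 on the plus strand, are shown beside them as the promoter of a cytokine gene in which these letters were not found. Capitals mark the match, which is a description of the sequence and no evidence of binding.
Xcl1: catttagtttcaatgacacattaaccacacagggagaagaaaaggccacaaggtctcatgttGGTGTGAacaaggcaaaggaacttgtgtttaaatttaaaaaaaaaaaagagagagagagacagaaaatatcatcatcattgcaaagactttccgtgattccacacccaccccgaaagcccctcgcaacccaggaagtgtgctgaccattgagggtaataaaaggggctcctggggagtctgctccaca
Ifng: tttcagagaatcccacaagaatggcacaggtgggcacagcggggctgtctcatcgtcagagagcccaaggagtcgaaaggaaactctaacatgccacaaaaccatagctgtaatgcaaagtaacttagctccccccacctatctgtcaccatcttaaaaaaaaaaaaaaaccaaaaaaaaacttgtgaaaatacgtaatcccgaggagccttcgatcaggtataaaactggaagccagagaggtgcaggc

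Eomes encodes eomesodermin, the T-box factor tied to memory CD8+ and natural killer cells. Its probe A_51_P332309 gave log2 ratios of -2.52, -2.44, -2.78 and -2.57 on arrays 1 to 4, and normalized log2 levels of 6.16 and 6.29 in in vitro-derived preparations, against 8.70 and 8.92 in thymic preparations. Both in vitro-derived preparations were low and both thymic preparations high, with a gap far wider than the 0.14 and 0.19 between preparations of a kind. The difference was -2.58 ± 0.09 (SE, n = 2 and 2), a 5.97-fold lower signal in in vitro-derived cells (limma, adjusted p = 6.01e-05), and 0.506% of genes had a lower value. The in vitro-derived signal lay close to the lowest level still well above background in that channel, which was between 6.03 and 6.24 over the arrays. With Agilent's processed signals, which carry no offset, the difference was -4.16.

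Tbx21 encodes T-bet, the T-box factor that drives interferon gamma expression in effector lymphocytes. It had log2 levels of 8.21 and 8.60 in in vitro-derived preparations, against 9.08 and 9.23 in thymic preparations. The groups did not overlap, but the gap between the nearest preparations was the narrowest of the 7 tested members. The ratios were -0.82, -0.57, -0.96 and -0.65 on arrays 1 to 4, and the difference was -0.75 ± 0.11 (SE, n = 2 and 2), or 1.68-fold lower (limma, adjusted p = 0.00366). In the raw scans its background-subtracted signal was 365, 549, 433 and 472 in the in vitro-derived channel, against 266, 340, 392 and 332 in the thymic channel, so the direction came from the normalization between the dyes. When each array was only centred on its median, the difference was -0.30 with adjusted p = 0.0636, and Tbx21 was not called. No other member lost its call under any of the 20 alternatives.

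**Figure D2:**
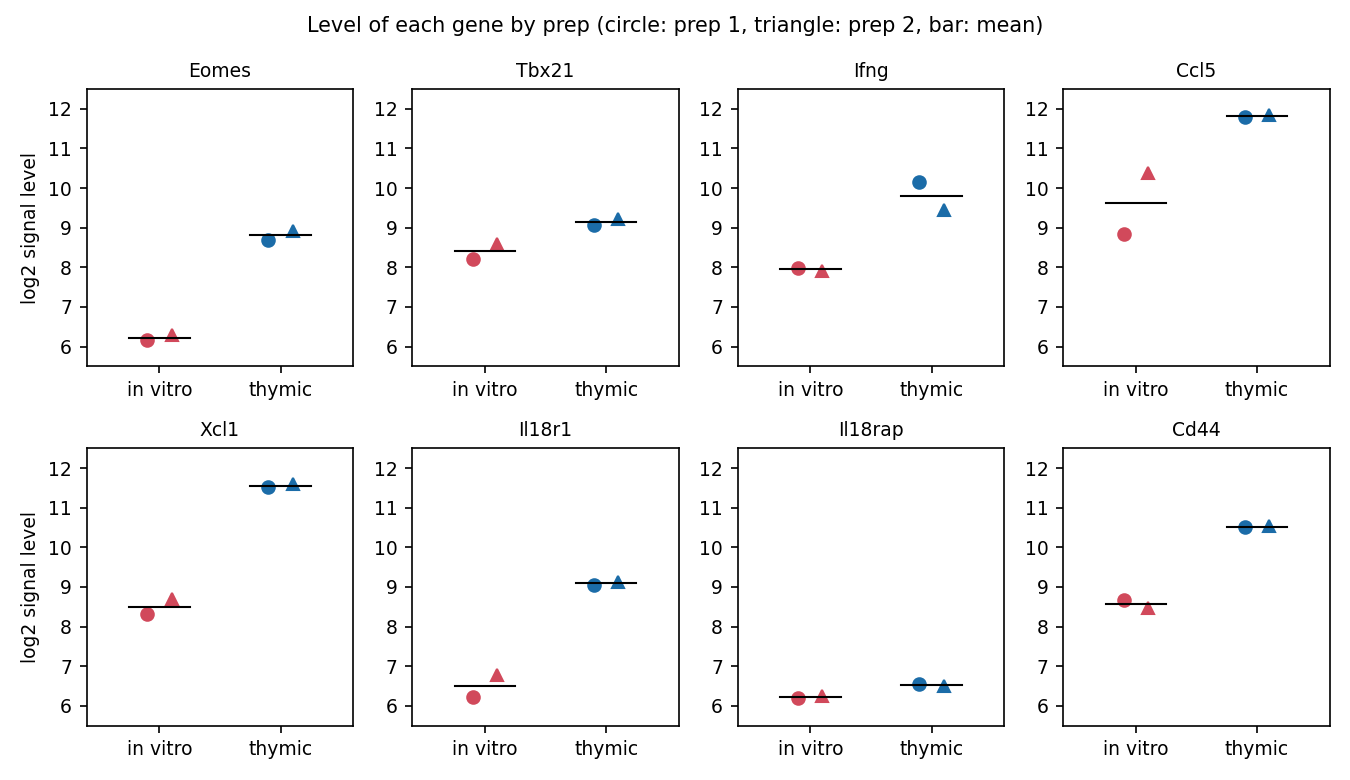
Normalized log2 signal level (vertical axis) of each member by preparation, in vitro-derived on the left and thymic on the right; circles are preparation 1, triangles preparation 2, and the bar is their mean. In vitro-derived preparations lie below thymic ones for each gene, with the wide in vitro-derived spread of Ccl5 (8.85 and 10.39) and the thymic spread of Ifng (10.16 and 9.44) visible; Il18rap is shown by its probe A_52_P517098 and was not tested.

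Other genes listed as partners of the T-box factors were mixed. Of 9 tested, 6 were called lower and 2 higher in in vitro-derived cells, with a median difference of -0.87, against 25.4% and 26.7% of all genes. Id2, which encodes an inhibitor of E proteins needed for effector and innate lymphocytes, had levels of 11.45 and 11.61 in in vitro-derived preparations, against 14.35 and 14.20 in thymic preparations, a difference of -2.74 ± 0.08 (SE, limma, adjusted p = 3.64e-05). Il2rb, which encodes the receptor chain shared by interleukins 2 and 15 and is a known Eomes and T-bet target, differed by -2.39 ± 0.14, or -1.57 under median centring. Tbx6, another T-box gene, differed by -1.17 ± 0.16 (-0.55 under median centring). Runx3, a CD8 lineage factor, differed by -0.87 (-0.28 under median centring). Tcf7, which encodes TCF1 of naive and memory T cells, was 1.45 ± 0.13 higher, or 2.53 under median centring. Bhlhe40 was 0.85 ± 0.28 with adjusted p = 0.0533 and was not called, but was called higher under median centring (1.32, adjusted p = 0.00431) and without in vitro-derived preparation 1 or thymic preparation 1 (adjusted p = 0.0247 and 0.00425). Stat4 was lower by a log2 difference of -0.52, but turned to 0.18 under median centring.

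Ifng encodes interferon gamma, the main cytokine product of these cells. Its probe A_52_P68893 had log2 levels of 7.99 and 7.90 in in vitro-derived preparations, against 10.16 and 9.44 in thymic preparations. The in vitro-derived preparations lay close together and both below the thymic ones, which were themselves apart. In the raw scans the background-subtracted signal was 327, 304, 347 and 278 in the in vitro-derived channel, against 664, 697, 467 and 395 in the thymic channel. That gap was narrower, so part of the difference came from the normalization between the dyes. The ratios were -2.18, -2.27, -1.46 and -1.51 on arrays 1 to 4, and the difference was -1.85 ± 0.24 (SE, n = 2 and 2), 3.62-fold lower (limma, adjusted p = 0.0025). A second probe printed in 10 spots, A_51_P220976, gave -1.79, -1.78, -1.23 and -1.23, with SDs over its spots between 0.0165 and 0.0664 on an array, and a difference of -1.51 ± 0.18. Both probes placed thymic preparation 1 above thymic preparation 2, by 0.74 (1.67-fold) at the first probe, and 0.115% of genes differed more between the thymic preparations. Tnf, the gene of tumour necrosis factor, showed the same order, with levels of 9.34 and 8.54 in thymic preparations 1 and 2.

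Among the other listed cytokine genes, 3 of 6 tested were called lower and none higher in in vitro-derived cells, against 25.4% and 26.7% of all genes. Lta, which encodes lymphotoxin alpha, was lower by a log2 difference of -2.41 ± 0.11 (5.32-fold; limma, adjusted p = 0.000104). Ltb, its membrane-bound partner, differed by -1.61 ± 0.11, or -0.33 under median centring. Tnf differed by -1.39 ± 0.23 (limma, adjusted p = 0.00533). It lost its call when the background correction was fitted on all spots, whether spots marked as non-uniform were then dropped (adjusted p = 0.0532) or kept (0.0533). Il2, Tnfsf10 and Fasl had differences of 0.01, -0.22 and -0.07 and were not called. With the processed signals Fasl (-1.37, adjusted p = 0.00072) and Tnfsf10 (-0.38, adjusted p = 0.0301) were called lower, as was Fasl under median centring (-0.26, adjusted p = 0.0205) and as the mean over its probes (-0.21, adjusted p = 0.0297). Tnfsf10 was also called lower without in vitro-derived preparation 2 (-0.30, adjusted p = 0.0171). Il4, Il10, Il17a and Csf2 were not tested, since their signals were not well above background on all arrays of a channel.

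Genes that respond to interferon gamma did not move as a block. Of 14 tested, 7 were called lower and 4 higher in in vitro-derived cells, with a median of -0.27, against 25.4% and 26.7% of all genes. Median centring turned this to 4 lower and 7 higher, against 11.4% and 60.2% of all genes in that setting. Cxcl10, a chemokine that attracts CXCR3-bearing cells, differed by -1.32 ± 0.28 (limma, adjusted p = 0.0132). That call was lost when the background correction was fitted on all spots, whether marked spots were then dropped or kept (adjusted p = 0.0616 in both). The interferon-inducible GTPase genes Irgm1 and Igtp differed by -1.40 ± 0.06 and -1.37 ± 0.08, and by -0.65 and -0.38 under median centring. Socs1, a feedback inhibitor of cytokine signalling, was 0.86 higher. Irf1, Socs3 and Cd274 had differences of -0.34, -0.10 and -0.20 and were not called. Under median centring Irf1 (0.79) and Socs3 (0.68) were called higher, and Cd274 was called lower without in vitro-derived preparation 1 (-0.44, adjusted p = 0.00675).

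Ccl5 encodes RANTES, a chemokine that memory CD8+ T cells store and release quickly. Its probe A_52_P638459 had log2 levels of 8.85 and 10.39 in in vitro-derived preparations 1 and 2, against 11.79 and 11.84 in thymic preparations. Both in vitro-derived preparations lay below the thymic ones, and preparation 2 lay much nearer to them than preparation 1. In the raw scans the background-subtracted signal of preparation 2 was 2078 and 2012, against 2141 and 2234 in the thymic channel of arrays 2 and 4. Most of the difference of that preparation thus came from the normalization between the dyes. For preparation 1 the raw signal was 669 and 710, against 2045 and 2452 on arrays 1 and 3. The ratios were -2.92 and -2.93 on the arrays with in vitro-derived preparation 1, and -1.45 and -1.46 on those with preparation 2. The difference was -2.19 ± 0.47 (SE, n = 2 and 2), 4.56-fold lower (limma, adjusted p = 0.0137). The in vitro-derived preparations differed from each other by 1.48 (2.78-fold), and 0.0365% of genes differed more. The difference was -2.93 without in vitro-derived preparation 2 and -1.45 without in vitro-derived preparation 1. Those fits take their spread from the thymic preparations alone, so a call in them says nothing about the in vitro-derived spread. The second probe, A_51_P485312, gave the same split, with -2.997 and -3.029 on the arrays of in vitro-derived preparation 1 and -1.411 and -1.303 on those of preparation 2.

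Natural killer cells also express Ccl5, and of 4 tested markers of them Klra7 and Klra8 were called lower in in vitro-derived cells, against 25.4% of all genes. The Klra7 call was lost with the processed signals (limma, adjusted p = 0.0814) and without thymic preparation 1 or 2 (differences of -0.88 and -0.75). The Klra8 call was lost when the background correction was fitted on all spots, whether marked spots were then dropped (adjusted p = 0.0927) or kept (0.0928). It was also lost without thymic preparation 1 (a difference of -0.43). Klrb1c was not called, but was called higher (0.79, adjusted p = 0.00284) without in vitro-derived preparation 1. The log2 of the summed levels of the tested markers was 8.69 and 9.18 in in vitro-derived preparations 1 and 2, against 9.06 and 9.11 in thymic preparations. Klrb1c, which encodes NK1.1, had levels of 7.25 and 8.07 in in vitro-derived preparations, against 7.34 and 7.31 in thymic preparations, and Klra7 had 6.242 and 7.004 in in vitro-derived preparations, against 7.353 and 7.525 in thymic preparations. Klra8 was not well above background on any in vitro-derived array and was at least 1.38-fold lower in in vitro-derived cells. Ncr1, a defining natural killer gene, exceeded background on none of the arrays. Klre1, the remaining tested marker, had 6.81 and 6.69 in in vitro-derived preparations, against 6.65 and 6.75 in thymic preparations, and was not called. Klrb1c and Klra7 were thus higher in in vitro-derived preparation 2, as Ccl5 was, whereas Klre1 was not, and the part of these transcripts in the Ccl5 split was not tested.

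**Figure D3:**
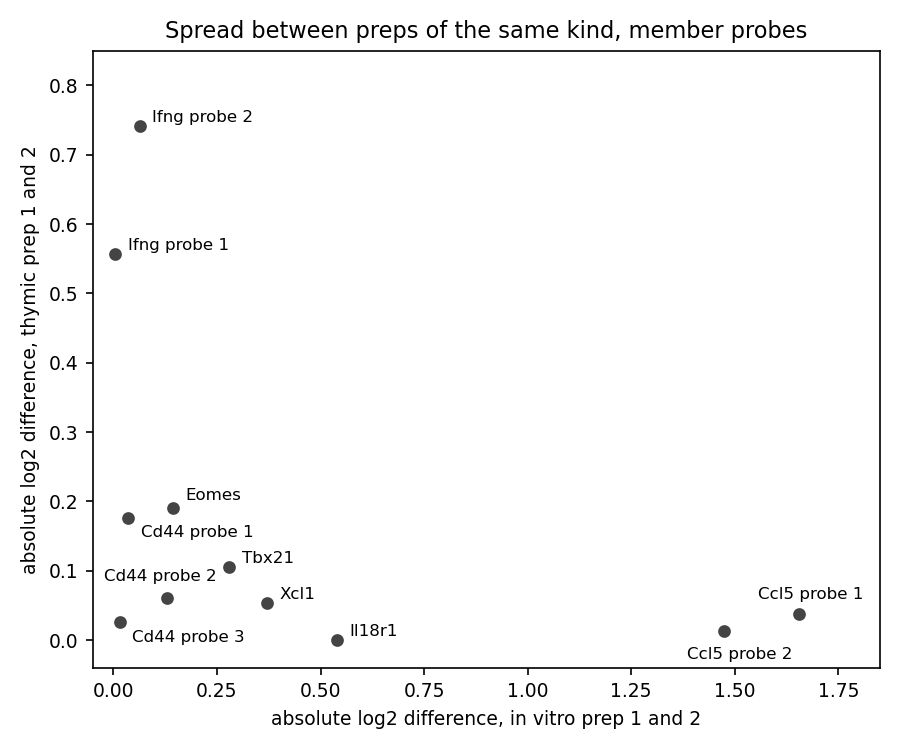
Absolute log2 difference between the in vitro-derived preparations (horizontal axis) and between the thymic preparations (vertical axis) for each tested member probe. Both Ccl5 probes lie far to the right, with 1.48 for the probe that stands for the gene, and both Ifng probes lie high, with 0.74 for the probe that stands for the gene; over all genes the medians were 0.100 and 0.0511.

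Xcl1 encodes lymphotactin, a chemokine by which activated CD8+ T cells draw cross-presenting dendritic cells. It had log2 levels of 8.31 and 8.68 in in vitro-derived preparations, against 11.53 and 11.59 in thymic preparations. Both in vitro-derived preparations were low and the thymic preparations nearly coincided. In the raw scans the background-subtracted signal was 448, 577, 450 and 565 in the in vitro-derived channel, against 1719, 1842, 2163 and 1850 in the thymic channel. Part of the difference thus came from the normalization between the dyes. The ratios were -3.17, -2.90, -3.33 and -2.85 on arrays 1 to 4, and the difference was -3.06 ± 0.13 (SE, n = 2 and 2), 8.36-fold lower (limma, adjusted p = 8.92e-05). This was the most negative difference among the tested members, and 0.219% of genes had a lower value. Its promoter is the one printed above with a T-box half-site match.

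Of 8 tested chemokine partners, 4 were called lower and none higher in in vitro-derived cells, with a median of -0.42. Among all genes, 25.4% were called lower and 26.7% higher. Median centring made this 3 lower and 2 higher, against 11.4% and 60.2% of all genes in that setting. Cxcr3, the receptor for interferon-induced chemokines, was lower by a log2 difference of -2.35 ± 0.06 (5.10-fold; limma, adjusted p = 3.15e-05). Ccl4, a chemokine of activated T cells, had levels of 8.33 and 7.64 in in vitro-derived preparations, against 9.96 and 9.97 in thymic preparations, a difference of -1.98 ± 0.22 (adjusted p = 0.00141). In Ccl4 the in vitro-derived preparation 1 was the higher one, the opposite order to Ccl5. Klf13, a regulator of Ccl5 in T cells, differed by -0.35 and turned to 0.53 under median centring. Ccl3, Ccl9, Ccr3 and Xcr1, the receptor for Xcl1, had differences of -0.50, 0.16, -0.15 and -0.03 and were not called, though Xcr1 was called higher under median centring (0.43, adjusted p = 0.00239) and Ccl3 lower without in vitro-derived preparation 2 (-0.80, adjusted p = 0.00117).

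Il18r1 encodes the ligand-binding chain of the interleukin 18 receptor. It had log2 levels of 6.23 and 6.78 in in vitro-derived preparations, against 9.05 and 9.14 in thymic preparations. Both in vitro-derived preparations were low and differed from each other by 0.54 (1.45-fold), while the thymic preparations gave the same ratios. Those ratios were -2.86 with in vitro-derived preparation 1 and -2.32 with preparation 2, and the difference was -2.59 ± 0.18 (SE, n = 2 and 2), 6.01-fold lower (limma, adjusted p = 0.000329). As for Eomes, the in vitro-derived signal was near the lowest level well above background, and the processed signals gave a more negative value of -3.95.

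Il18rap encodes the accessory chain that completes the interleukin 18 receptor, and its signal lay at the edge of detection. The probe A_52_P517098 was well above background on none of the in vitro-derived arrays and on 3 of 4 thymic arrays. Its levels were 6.20 and 6.24 in in vitro-derived preparations, against 6.54 and 6.51 in thymic preparations, and its ratios lay between -0.37 and -0.21. Those levels did not overlap, but no fold is given so close to background. The other probe, A_52_P255577, designed on a cDNA clone, exceeded background on none of the arrays, whichever the dye, and its levels overlapped (6.01 and 5.89 in in vitro-derived preparations, 5.97 and 6.06 in thymic preparations).

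Il18r1 and Il18rap are neighbours in an array of interleukin 1 receptor family genes on mouse chromosome 1, and the tested neighbours had smaller differences than Il18r1. In the gene order of GRCm38.p6, Il1r1, Il1rl2 and Il1rl1 come before Il18r1, and Slc9a4, Slc9a2 (not tested) and Mfsd9 follow Il18rap. The tested ones had differences of 0.20, -0.71, 0.14, 0.03 and -0.67 in that order, and Il1rl2 and Mfsd9 were called lower (limma, adjusted p = 0.00884 and 0.000842). The Il1rl2 call was lost under median centring (-0.27, adjusted p = 0.121) and without thymic preparation 1 (adjusted p = 0.054), and Il1r1 was called higher without in vitro-derived preparation 1 (adjusted p = 0.0387). Il18, the gene of the ligand, differed by -0.03 and was not called.

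A wider list held receptors and transducers for interleukin 12, interleukin 18 and interferon gamma, together with Il18 itself, its binding protein gene Il18bp and other interleukin 1 receptor family genes (Il1r1, Il1rl1, Il1rl2, Il1rap, Sigirr). Of 19 tested, 12 were called lower and 4 higher in in vitro-derived cells, with a median of -0.27, against 25.4% and 26.7% of all genes. Under median centring these counts were 3 and 6, against 11.4% and 60.2% of all genes in that setting. Ifngr1, the ligand-binding chain of the interferon gamma receptor, was 3.10 ± 0.17 higher, with levels of 16.48 and 16.77 in in vitro-derived preparations, against 13.51 and 13.53 in thymic preparations (limma, adjusted p = 0.000187). Il12rb1 and Il12rb2, the chains of the interleukin 12 receptor, were higher by 1.83 ± 0.14 and 1.28 ± 0.08. Jak1 differed by -1.29 ± 0.11 and by -0.25 under median centring. Myd88 and Irak1, which carry the interleukin 18 signal, differed by -0.63 and -0.51 and turned to 0.08 and 0.26 under median centring. Ifngr1, Il12rb1 and Il12rb2 thus stood higher while Il18r1 stood lower, in the same preparations, and those 3 were higher under median centring as well (4.19, 2.48 and 1.66).

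**Figure D4:**
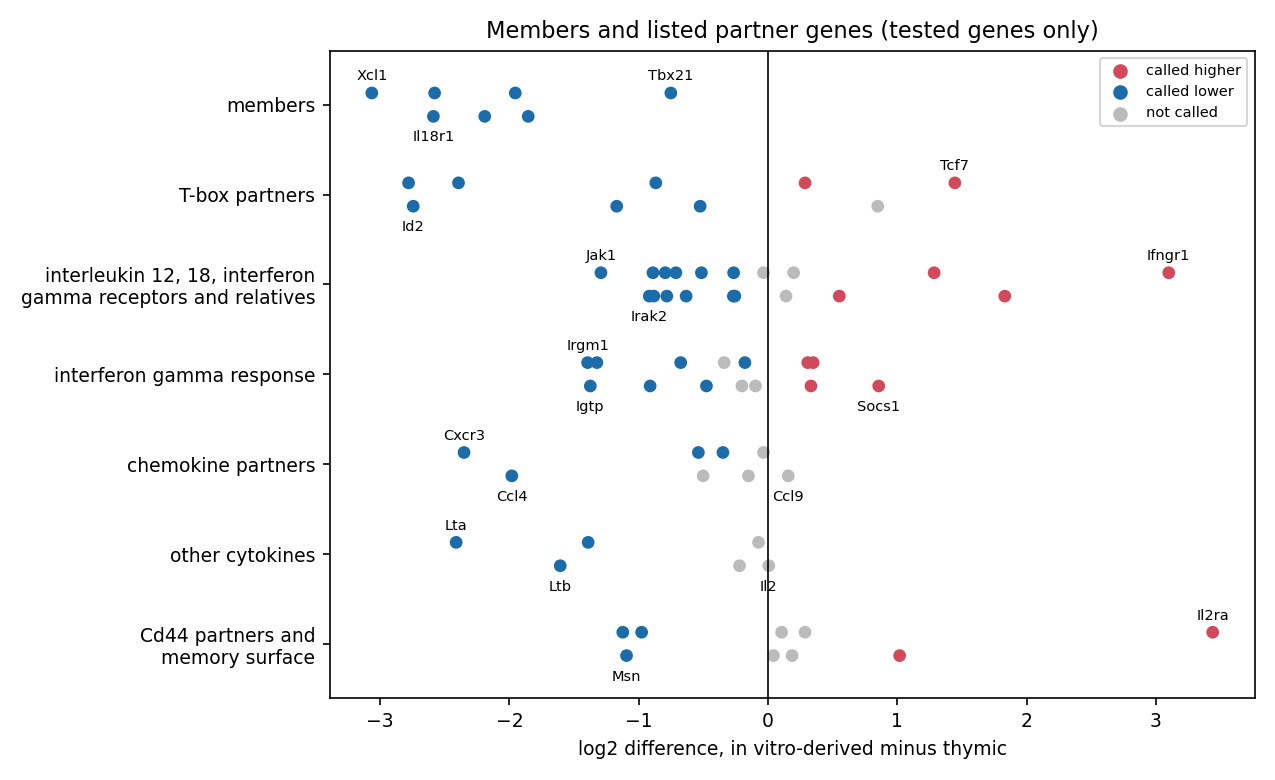
Log2 difference, in vitro-derived minus thymic (horizontal axis), of the 7 tested members and of every tested gene in 6 lists of partner genes, 1 point per gene, coloured by call at adjusted p under 0.05. The members all lie left of 0, between -3.06 and -0.75, whereas the lists include called genes on both sides, such as Id2 at -2.74 and Ifngr1 at 3.10.

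Cd44 encodes the hyaluronan receptor whose high surface level marks memory T cells, and its probes disagreed. The probe A_52_P229536, which stands for the gene as its brightest, had log2 levels of 8.66 and 8.47 in in vitro-derived preparations, against 10.51 and 10.53 in thymic preparations. Both in vitro-derived preparations were low and the groups were far apart. Its ratios were -1.87, -1.98, -1.91 and -2.06 on arrays 1 to 4, and the difference was -1.95 ± 0.07 (SE, n = 2 and 2), 3.87-fold lower (limma, adjusted p = 6.09e-05). In the raw scans its background-subtracted signal was 575, 503, 597 and 441 in the in vitro-derived channel, against 862, 868, 1037 and 865 in the thymic channel. That gap was narrower, so part of the difference came from the normalization between the dyes. The probe A_52_P523459, printed in 10 spots, gave -2.04 ± 0.06, or 4.12-fold lower, with spot SDs between 0.0555 and 0.105 on an array. Its in vitro-derived levels of 6.65 and 6.60 were near background, and the processed signals gave -3.19 for it. The third probe, A_51_P407053, had levels of 6.55 and 6.58 in in vitro-derived preparations, against 6.48 and 6.55 in thymic preparations, and its difference was 0.05 ± 0.08 (adjusted p = 0.632 over all probes). That probe was dim, well above background on 1 of 4 thymic arrays, and the array's accession column ties it to 2 RefSeq transcripts where the others are tied to 3. With the mean over all 3 probes the gene's difference was -1.32. The higher stroma markers stood beside this result. The log2 of the summed levels of the tested stroma markers was 13.39 and 13.75 in in vitro-derived preparations, against 10.31 and 10.23 in thymic preparations. The part of these markers in the Cd44 level was not tested.

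Genes listed as Cd44 partners or as memory surface proteins were split. Of 9 tested, 3 were called lower and 2 higher in in vitro-derived cells, against 25.4% and 26.7% of all genes. Median centring made this 2 lower and 6 higher, against 11.4% and 60.2% of all genes in that setting. Msn, which encodes moesin, a link of CD44 to the cytoskeleton, differed by -1.09 ± 0.06, and by -0.46 under median centring. Il2ra, the inducible chain of the interleukin 2 receptor, had levels of 10.45 and 11.34 in in vitro-derived preparations, against 7.55 and 7.37 in thymic preparations, and was 3.44 ± 0.26 higher (limma, adjusted p = 0.000422). Spp1, which encodes the CD44 ligand osteopontin, was at least 2.03-fold higher in in vitro-derived cells, since no thymic array was well above background. Its call was lost when the background correction was fitted on all spots, whether marked spots were then dropped (limma, adjusted p = 0.0666) or kept (0.0668). Ezr, Rdx, Ly6c1 and the early activation gene Cd69 had differences of 0.04, 0.19, 0.11 and 0.29 and were not called, though all 4 were called higher under median centring, Rdx without in vitro-derived preparation 1 (adjusted p = 0.0368) and Ly6c1 without in vitro-derived preparation 2 (adjusted p = 0.0398).

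The members also differed in how far the preparations of a kind lay apart. For Eomes, Cd44, Tbx21 and Xcl1 the preparations of a kind differed by at most 0.37, whereas Il18r1 and Ccl5 differed by 0.54 and 1.48 between in vitro-derived preparations and Ifng by 0.74 between thymic preparations. Leaving out either preparation of either kind kept the direction of all 7 tested members, but could not have turned it. The ratios of the probes standing for these genes were negative on all 4 arrays. Fits without 1 preparation also hold no spread between preparations of the reduced kind, so their calls are no test of that spread. The genes whose ratios lay nearest to the members' median profile over the 4 arrays were Hsd11b1, Il2rb and Spaca1, with root mean square distances of 0.121, 0.125 and 0.141 on the log2 scale.

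**Figure D5:**
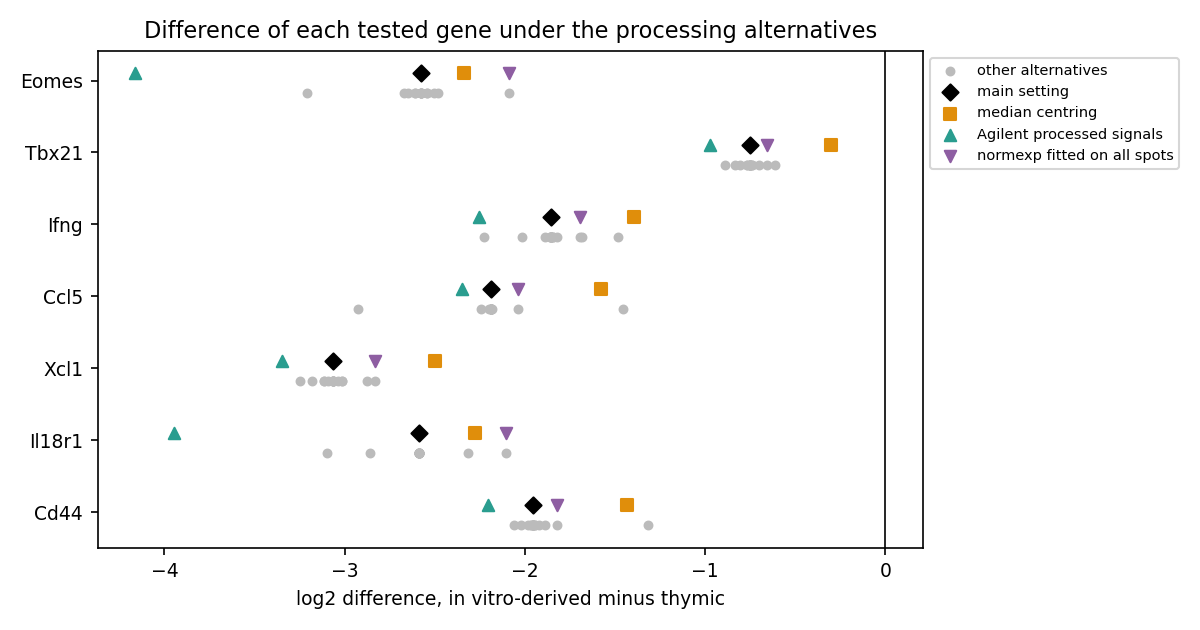
Log2 difference, in vitro-derived minus thymic (horizontal axis), of each tested member under the main setting and the processing alternatives, with 3 scalings marked by their own symbols; the authors' own ratios, which match the processed signals, are left out. Every value lies left of 0, and Tbx21 under median centring (-0.30) lies nearest to it, while the processed signals give -4.16 for Eomes and -3.95 for Il18r1.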

How the data were processed

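Total RNA (1 ug a sample, Trizol) was amplified and dye-coupled using Agilent's Low RNA Input kit, and arrays were scanned to Agilent Feature Extraction 9.5.1.1 files, per the file headers. The deposited files hold each spot's mean and background intensity in 2 dyes, before normalization. The authors' deposited series table holds log10 ratios of the processed signals, used as an alternative. Agilent's own spot marks (well above background, non-uniform, outlier) were read as given. Spots marked non-uniform or outlier were dropped, the rest corrected by normexp (offset 50) and normalized within arrays by loess in limma 3.58.1 (R 4.3.3), with control spots at weight 0. Levels are per channel after loess and Aquantile scaling, and levels of different probes are not comparable. A sum of levels over a list is thus weighted to its brightest probes and is compared only between preparations. Testing required a probe to exceed background on each of the 4 arrays in the same dye or in both, with the brightest probe per gene. The 4 ratios were solved into 2 values per kind and fitted with lmFit and eBayes, which left 2 residual degrees of freedom. In the gene fit, the spread over all genes added 3.037 prior degrees of freedom, and the SEs given are moderated in this way. The smallest two-sided exact permutation p for 2 against 2 is 0.333. Dyes were not swapped, and all arrays lay on 1 slide in 1 scan. Symbols of 22951 probes were updated through RefSeq. Partner genes named are those called at least 2-fold changed, plus those not called; Runx3, Stat4, Socs1, Klf13, Myd88 and Irak1 were added after their values were seen. A few genes counted in these lists are not reported here by name. Members, lists, tests and the dropping of marked spots were chosen with earlier results of these data known. The fit was tested on simulated data.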

Additional observations from a re-analysis of the deposited data

How the results depend on the processing

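All 20 alternatives gave each of the 7 tested members the same direction, but many could not have moved it. Aquantile scaling, the other filters on dim probes, the probe-level fit and arrays taken as independent left every estimate unchanged. The deposited ratios repeat the processed signals. Leaving out array 1 gave the same estimates as leaving out array 4, and array 2 the same as array 3. Fits without 1 preparation or 1 array could not turn the direction either, since the ratios behind them were negative on all 4 arrays. Called lower were 7 members in every alternative except median centring (6) and no filter on dim probes (8, with Il18rap). Tbx21 under median centring was -0.30 (adjusted p = 0.0636). Over the alternatives, Eomes ranged between -4.16 and -2.09, Tbx21 between -0.97 and -0.30, Cd44 between -2.20 and -1.32, Ifng between -2.25 and -1.39, Ccl5 between -2.93 and -1.45, Xcl1 between -3.35 and -2.50, and Il18r1 between -3.95 and -2.10. Median centring moved the median of all genes to 0.39 and called 2180 genes lower (11.4%) and 11538 higher (60.2%), against 4862 and 5116; the cause was not tested. Leaving out 1 preparation or 1 array gave between 2855 and 4806 genes called lower and between 2930 and 5184 called higher, with 3010 and 3057 without thymic preparation 1 and 2855 and 2930 without thymic preparation 2. Fits without 1 preparation take its spread from the other kind, so calls kept in them do not account for the spread within the reduced kind. Fits without 1 array fill that combination from the other 3. No paired analysis was possible because every in vitro-derived preparation was hybridised with every thymic preparation. Eomes, Il18r1, Il18rap and the 10-spot Cd44 probe are limited by signal close to background in in vitro-derived cells.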
